A study of Rattus norvegicus with 64 samples.

Results

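The 10 Wnt ligand genes Wnt1, Wnt2b, Wnt3, Wnt4, Wnt5a, Wnt5b, Wnt6, Wnt10a, Wnt11 and Wnt16 were followed in the reconstructed rat bladder wall, among 15715 genes that could be named on the array. They were found by matching the RefSeq transcript that the array lists for each probe to these gene symbols. All 10 had a probe, and Wnt11 had 2. Gene expression was measured on 64 one-color Agilent arrays, 1 male Wistar rat per array and 8 rats in each of 8 groups. Every rat had lost part of its bladder by hemicystectomy and had the defect closed with about 1 cm2 of bladder acellular matrix (BAM), which is bladder wall freed of its cells. In 4 groups the graft was BAM only, and in the other 4 it was BAM seeded with ASCs, which are adipose-derived stromal cells (ADSCs in the labels) from syngeneic male rats of 10 weeks. Bladders were taken at 7, 30, 90 and 180 days after surgery, and no unoperated bladder was among the arrays. The RNA came from the whole reconstructed wall. Fewer cells of a type and less RNA per cell therefore cannot be told apart in any value below.

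Wnt ligands are secreted glycoproteins that carry a lipid, added by the acyltransferase Porcn, and leave the cell with the carrier Wls. At the receiving cell they bind Frizzled receptors. With the co-receptors Lrp5 and Lrp6 they stabilize β-catenin, which acts with TCF/LEF factors on target genes. With Ror and Ryk receptors they act on cell shape and movement without β-catenin. In the injured bladder, Hedgehog signals from basal urothelium are known to induce Wnt expression in the stroma, and stromal Wnts act back on the urothelium. Wnt1, Wnt2b, Wnt3, Wnt6 and Wnt10a are mostly described as β-catenin ligands. Wnt5a, Wnt5b and Wnt11 are mostly described as ligands that act without it, and Wnt4 and Wnt16 are described for both.

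Promoter windows of RefSeq genes (assembly GRCr8, 250 bases before to 50 bases after the gene start) were matched for 9 of the 10 ligands. They were searched on both strands for the GC box GGGCGG, the CCAAT box, TATAAA and the TCF/LEF motif, which is CTTTG followed by A or T and once more by A or T. The windows of Wnt1, Wnt10a and Wnt16 are shown, since these are the ligands that differed between the grafts. Capitals mark the GC box in Wnt1 and the CCAAT boxes in Wnt10a and Wnt16, and no other searched motif was found in these 3 windows.
Wnt1 (chr7:131817308-131817607, plus strand): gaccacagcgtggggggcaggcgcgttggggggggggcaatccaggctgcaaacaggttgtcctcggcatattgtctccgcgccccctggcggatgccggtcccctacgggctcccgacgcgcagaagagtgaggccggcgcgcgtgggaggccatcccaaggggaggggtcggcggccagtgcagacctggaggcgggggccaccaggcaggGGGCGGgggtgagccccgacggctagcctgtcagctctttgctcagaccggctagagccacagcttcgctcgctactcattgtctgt
Wnt10a (chr9:83798344-83798643, plus strand): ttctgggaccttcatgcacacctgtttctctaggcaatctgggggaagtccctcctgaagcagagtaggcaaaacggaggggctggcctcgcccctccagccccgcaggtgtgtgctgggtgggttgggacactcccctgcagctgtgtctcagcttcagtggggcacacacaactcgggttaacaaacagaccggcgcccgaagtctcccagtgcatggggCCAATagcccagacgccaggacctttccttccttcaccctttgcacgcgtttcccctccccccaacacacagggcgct
Wnt16 (chr4:51786478-51786777, plus strand): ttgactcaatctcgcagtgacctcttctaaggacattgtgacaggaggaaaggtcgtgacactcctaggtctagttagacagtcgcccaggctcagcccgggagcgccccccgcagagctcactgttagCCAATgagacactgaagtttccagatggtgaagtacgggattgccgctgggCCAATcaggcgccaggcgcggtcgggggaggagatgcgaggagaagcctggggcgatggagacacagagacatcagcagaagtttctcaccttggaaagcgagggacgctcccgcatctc
A GC box was found in 5 of the 9 windows and in 33.1% of 33469 promoters of the same length. A CCAAT box was found in 3 of the 9, against 37.5% of promoters. The TCF/LEF motif was found in 1 of the 9, that of Wnt3, against 17.1%, and TATAAA in none, against 14.2%. The windows of all 9 ligands had more G and C than the median promoter, with 58.3% to 83.3% against 51.7%.

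Expression is given as the log2 normalized signal, which is log2 of the processed brightness of a probe minus the 75th percentile of its array. A difference of 1 is a 2-fold difference, and levels of different genes are not set against each other. The test was a limma fit over all 30367 gene probes and 64 arrays, and a difference passed it with a fold over 1.5 and a p below 0.01 after Benjamini-Hochberg adjustment. The early arrays (7 and 30 days) had 73.3% to 95.6% of their gene spots well above background, the late ones (90 and 180 days) 35.5% to 64.6%. Slide and group cannot be told apart, as each slide held 1 group. Early and late slides were scanned on different days, so that graft comparisons lie within a scan day, and changes from 30 to 90 or from 7 to 180 days cross it. The median difference of all probes between scan days reached 0.48, and is given beside the counts. One array of BAM only at 7 days (replicate 7) and 1 of BAM seeded with ASCs at 30 days (replicate 1) stood apart. They had 86.1% and 95.6% of spots above background and all-probe medians of -2.76 and -2.12, against group means of -3.21 and -3.09. BAM only at 90 days (replicate 8), with 35.5% of spots above background and a median of -3.04, and BAM seeded with ASCs at 30 days (replicate 2), with 86.2%, also differed from their groups, and results were computed without them as well. Wnt1 and Wnt4 were well above background on all 64 arrays. The number of arrays was 63 for Wnt2b, 62 for Wnt5a and Wnt10a, 54 for Wnt5b, 48 for Wnt11, 45 for Wnt6, 37 for Wnt16 and 4 for Wnt3.

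**Figure D1:**
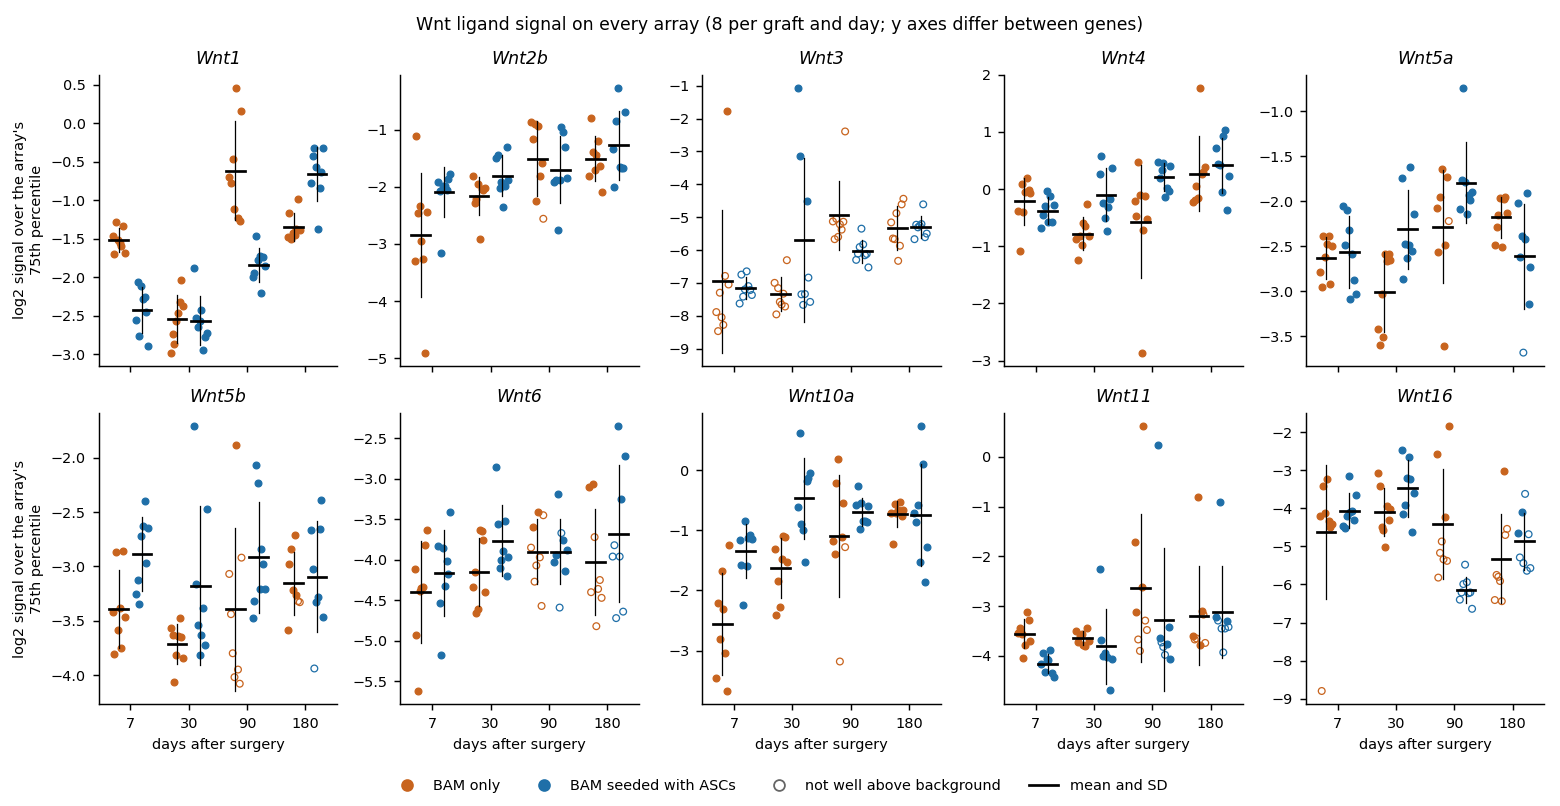
Log2 normalized signal (y axis) of the 10 Wnt ligands on each of the 64 arrays against days after surgery, with the mean and SD of each group of 8. Orange is BAM only, blue is BAM seeded with ASCs, and open circles are arrays on which the probe was not well above background. The highest Wnt1 values are in BAM only at 90 days and in BAM seeded with ASCs at 180 days, and Wnt3 is filled on 4 of the 64 arrays.

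Whether seeding with ASCs changed Wnt ligand expression was addressed by comparing the grafts at each day. At 7 days Wnt10a was 2.31-fold higher and Wnt1 1.87-fold lower in the ASC-seeded bladders than in those reconstructed using BAM only. At 30 days no ligand passed the test. At 90 days Wnt1 was 2.33-fold lower with ASCs. Wnt16 was lower with ASCs as well, although most of its arrays give only an upper limit. At 180 days Wnt1 was 1.61-fold higher. Each count was read against all probes. At 7 days 2 of 10 ligands passed, 1 higher and 1 lower, against 7.73% of all probes. At 30 days 0 of 10 passed, against 1.67% of all probes, with 5 ligands at an unadjusted limma p under 0.05. The same fit with the variance of each probe taken alone passed none either. The two-way analysis of variance of the study's methods was not repeated. At 90 days 2 of 10 were lower, against 12.5% of all probes in either direction and 8.6% lower. At 180 days 1 of 10 was higher, against 2.44% in either direction and 2.4% higher. In order of time, the median difference of the 10 ligands was 0.15, 0.58, -0.10 and 0.11, beside -0.16, 0.11, -0.27 and 0.06 for all probes. The difference was above 0 for 6, 8, 4 and 8 of the 10 ligands, and for 30.9%, 63%, 33% and 59.2% of all probes. The shares of all probes depended on the scaling. Of the probes that passed, 27.3%, 71.7%, 31.1% and 98.2% were higher with ASCs, in order of time. This split was 45.8% at 7 days with the series matrix values, 53.8% and 75.6% at 30 and 180 days under quantile normalization, and 60.8% at 90 days under normexp, another background correction. Under normexp 5.09%, 1.23%, 4.78% and 1.57% of all probes passed.

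**Figure D2:**
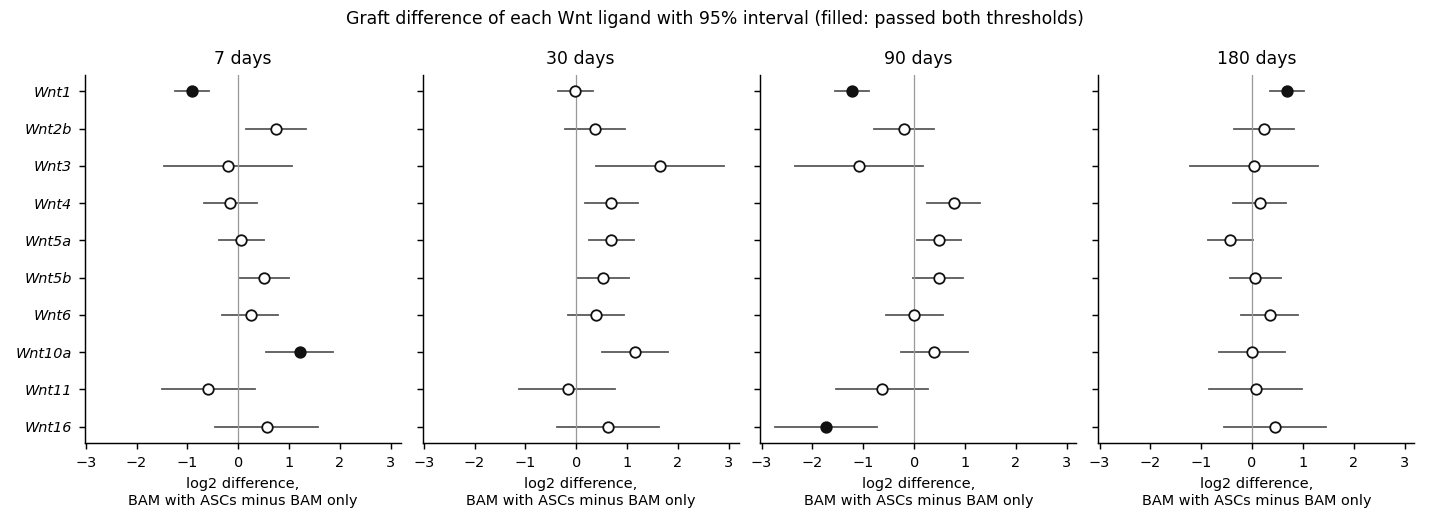
Difference of the group means (BAM seeded with ASCs minus BAM only, log2, x axis) for each ligand at 7, 30, 90 and 180 days, with the 95% interval of the fit. Filled points passed both thresholds, which are Wnt1 and Wnt10a at 7 days, Wnt1 and Wnt16 at 90 days and Wnt1 at 180 days; at 30 days all points are open, and Wnt10a has a difference of 1.15.

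Wnt1, the founding member of the family, was lower with ASCs at 7 and 90 days and higher at 180 days. At 7 days the lowest, median and highest arrays were -1.70, -1.54 and -1.28 with BAM only, and -2.89, -2.37 and -2.06 with ASCs. All 8 arrays with ASCs lay below all 8 with BAM only, with a difference of -0.91 ± 0.17 (SE, limma adjusted p = 7.35e-05). At 30 days the arrays were -2.98, -2.52 and -2.04 with BAM only and -2.95, -2.61 and -1.88 with ASCs. The groups overlapped along their whole range, and the difference was -0.02, with a 95% interval from -0.36 to 0.32. At 90 days the arrays were -1.27, -0.74 and 0.46 with BAM only, and -2.20, -1.81 and -1.46 with ASCs. The groups again did not overlap, and the difference was -1.22 ± 0.17 (adjusted p = 7.24e-08). At 180 days the arrays were -1.51, -1.41 and -0.99 with BAM only, and -1.37, -0.60 and -0.32 with ASCs. The direction had turned, the groups overlapped, and the difference was 0.69 ± 0.17 (adjusted p = 0.00538). The turn of the graft difference was tested itself. It changed by -1.20 from 30 to 90 days (adjusted p = 1.89e-04), by 1.91 from 90 to 180 days (adjusted p = 6.14e-09) and by 1.60 from 7 to 180 days (adjusted p = 8.56e-07). The change from 7 to 30 days, 0.89, had an adjusted p of 0.0214 and did not pass. The call at 180 days was lost without any 1 of 8 arrays, namely replicates 2, 3, 4 and 8 of BAM seeded with ASCs and 1, 3, 4 and 5 of BAM only, with adjusted p from 0.0109 to 0.0162. It was also lost under normexp background correction (0.58, under the fold threshold), with the percentile taken over detected probes (adjusted p = 0.0145) and with the series matrix values (adjusted p = 0.0114). The calls at 7 and 90 days were kept without any single array, and the difference at 90 days was -1.11 (adjusted p = 4.05e-07) without replicate 8 of BAM only.

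Ordered by group mean, Wnt1 was highest in BAM only at 90 days (-0.62 ± 0.64, SD, n = 8) and in BAM seeded with ASCs at 180 days (-0.66 ± 0.35), whose arrays overlapped. BAM only at 180 days (-1.35 ± 0.18) and at 7 days (-1.52 ± 0.15) followed, then BAM seeded with ASCs at 90 days (-1.84 ± 0.22). BAM seeded with ASCs at 7 days (-2.42 ± 0.30) and both grafts at 30 days were lowest (-2.55 ± 0.31 with BAM only and -2.56 ± 0.32 with ASCs). Each group's arrays overlapped those of its neighbor in this order. Within BAM only Wnt1 fell by 1.03 from 7 to 30 days, with all arrays below, rose by 1.93 from 30 to 90 days, with all arrays above, and fell by 0.73 from 90 to 180 days (adjusted p = 5.07e-06, 2.47e-14 and 6.97e-04). Within BAM seeded with ASCs it did not pass the test from 7 to 30 days, rose by 0.73 from 30 to 90 days and by 1.18 from 90 to 180 days, the last with all arrays above (adjusted p = 3.45e-04 and 3.45e-07). Without replicate 5 of BAM only at 90 days the last step of BAM only was -0.58, under the 1.5-fold threshold, as it was under normexp (-0.55), and its adjusted p was 0.0485 with only the groups compared. The highest mean of Wnt1 stood at 90 days in one graft and at 180 days in the other. BAM only at 90 days had the highest local background of all groups (345 ± 14.2 intensity units, against 108 ± 7.03 with ASCs), and the 6 skeletal muscle markers had their highest mean there (-2.65 ± 1.04, range -3.57 to -1.02, against -3.20 ± 0.19, range -3.49 to -2.92, with ASCs). Their mean was -2.71 ± 0.64 in BAM seeded with ASCs at 180 days (range -3.57 to -1.67), where Wnt1 was also high, against -3.10 ± 0.35 with BAM only (range -3.65 to -2.58). None of these 6 markers passed between the grafts at 90 or 180 days by limma (2 and 1 had an unadjusted p under 0.05). Myh4, Myl1 and Myl11 among them were well above background on 5, 8 and 32 of the 64 arrays, and their part in the Wnt1 values was not tested. The Schwann cell and smooth muscle markers, also related to Wnt1 within groups (below), had their lower mean in the graft with more Wnt1. The Schwann cell means were -2.52 ± 0.795 with BAM only and -2.29 ± 0.459 with ASCs at 90 days. At 180 days they were -2.29 ± 0.295 and -2.35 ± 0.42. The smooth muscle means were 4.07 ± 0.622 and 4.60 ± 0.32 at 90 days, and 4.56 ± 0.362 and 4.37 ± 0.587 at 180 days.

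Wnt10a, a β-catenin ligand known from teeth, hair and skin, was higher with ASCs at 7 days. The lowest, median and highest arrays were -3.67, -2.55 and -1.25 with BAM only, and -2.24, -1.15 and -0.84 with ASCs. Most arrays with ASCs lay above most with BAM only, with overlap, and the difference was 1.21 ± 0.33 (SE, adjusted p = 0.00563). At 30 days the arrays were -2.40, -1.50 and -1.09 with BAM only, and -1.53, -0.40 and 0.62 with ASCs. The difference of 1.15 ± 0.33 was of similar size but did not pass (adjusted p = 0.0202), and it passed without replicate 5 of BAM seeded with ASCs (1.30, adjusted p = 0.00882). At 90 and 180 days the differences were 0.40 (95% interval -0.25 to 1.05) and -0.01 (-0.66 to 0.64). Within BAM only Wnt10a rose by 1.82 from 7 to 180 days, where all 8 arrays at 180 days lay above all 8 at 7 days (adjusted p = 2.28e-06). No single step of it passed, the largest being 0.92 from 7 to 30 days (adjusted p = 0.0347), which passed without replicate 8 of BAM only at 7 days (1.11, adjusted p = 0.00915). With ASCs neither a step nor the whole span passed. The change of the graft difference from 7 to 180 days, -1.22, had an adjusted p of 0.0600. The call at 7 days was lost without any 1 of 9 arrays, namely replicates 1, 4, 6, 7 and 8 of BAM seeded with ASCs and 1, 3, 6 and 7 of BAM only (differences of 1.05 to 1.18, adjusted p from 0.011 to 0.0252), and was also lost when only the groups compared were fitted (adjusted p = 0.0164) and without both arrays that stood apart (1.05, adjusted p = 0.0244).

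Urothelial markers are given beside Wnt10a, a ligand of epithelia. Of 5 luminal urothelium markers on the array, 4 were higher with ASCs at 7 days, namely the uroplakins Upk1a (2.36), Upk1b (1.79), Upk2 (2.87) and Upk3a (2.28), which form the plaques of the bladder surface, while Krt20 had a difference of 0.02. The mean of the 5 markers was 0.16 ± 1.57 with BAM only (range -2.53 to 2.38) and 2.03 ± 0.72 with ASCs (range 0.62 to 3.10). None of the 5 was without signal in any group. The 5 basal urothelium markers had means of 1.11 ± 1.06 and 1.97 ± 0.44 at 7 days, with ranges from -0.78 to 2.18 and from 1.38 to 2.59. None of them passed by limma, and 2 had an unadjusted p under 0.05. At 30 days the basal mean was 0.76 ± 0.91 with BAM only (range -0.71 to 1.96) and 2.46 ± 0.95 with ASCs (range 0.87 to 3.84), and Itgb4 passed (1.05). The luminal mean was 2.59 ± 0.52 with BAM only (range 1.77 to 3.28) and 3.23 ± 0.49 with ASCs (range 2.47 to 3.87) at 30 days, and 2.97 ± 0.97 (range 0.90 to 4.00) and 4.20 ± 0.65 (range 3.50 to 5.64) at 90 days. No luminal marker passed by limma on these days, with 0 and 4 at an unadjusted p under 0.05 and medians of 0.65 and 1.30, beside Wnt10a differences of 1.15 and 0.40. The part of the amount of urothelium in the Wnt10a difference was not tested.

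**Figure D3:**
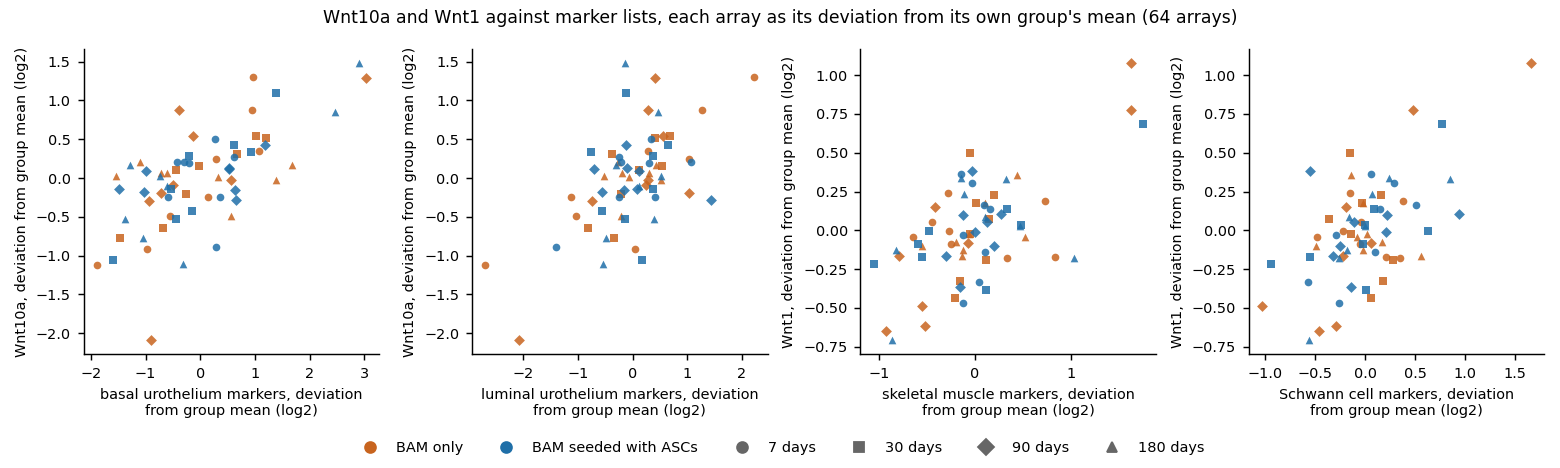
Wnt10a and Wnt1 (y axes) against the mean of a marker list (x axes), each of the 64 arrays shown as its deviation from the mean of its own group (log2). Color gives the graft and shape the day; Wnt10a was higher on arrays with more signal of basal and luminal urothelium markers, and Wnt1 on arrays with more signal of skeletal muscle and Schwann cell markers.

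Within groups Wnt10a and the urothelial markers varied together from rat to rat. Over 64 arrays, taken as deviations from their group means, Wnt10a correlated with the mean of the basal urothelium markers (Pearson's r = 0.651, Spearman's rho = 0.613) and of the luminal markers (r = 0.575, rho = 0.485). Permuting arrays within groups gave p = 1.0e-05 and 5.0e-05 for r, and 1.0e-05 and 3.5e-04 for rho, of which 1.0e-05 is the smallest that 100000 permutations can give. Adjusted over 120 relations of 10 ligands, 11 marker lists and the all-probe median, the p-values of r were 0.0012 and 0.00144. Without the 2 arrays farthest from the median of the markers r was 0.567 and 0.492. Wnt1 correlated with the skeletal muscle markers (r = 0.616, rho = 0.434, adjusted permutation p = 0.0024 and 0.017), the Schwann cell markers (r = 0.577, rho = 0.429, adjusted p = 0.00144 and 0.0194) and the smooth muscle markers (r = 0.442, rho = 0.519, adjusted p = 0.0033 and 0.0016). Without the 2 farthest arrays these were 0.478, 0.431 and 0.578. Wnt1 also varied with the all-probe median of its array (r = 0.345, rho = 0.280, adjusted permutation p = 0.0478 and 0.119, 0.211 without 2 arrays). Wnt3, mostly at background, was related to the skeletal muscle markers about as closely as Wnt1 (r = 0.594, rho = 0.474, adjusted permutation p = 0.00144 and 0.017, 0.560 without 2 arrays). How far the dim markers of this list follow the floor of an array was not tested. Wnt5a correlated with the luminal urothelium markers (r = 0.481, rho = 0.511, adjusted permutation p = 0.00144 and 0.0012, 0.527 without 2 arrays).

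The genes whose deviations were most like those of a ligand, among 8341 named genes, are given as a description. For Wnt10a they were S100a16, a calcium-binding protein, Lypd3, a surface protein of stratified epithelia, and Epb41l4a, with r of 0.917, 0.911 and 0.905 over 64 arrays. For the other ligands they were less alike. Wnt1 was nearest to Fkbp1b (0.733), which binds calcium release channels of muscle, Car14 (0.722), a carbonic anhydrase, and Creb3l2 (0.713), a transcription factor of the endoplasmic reticulum. Wnt2b was nearest to Tcf21 (0.696), a mesenchymal transcription factor, Adh1c (0.693), an alcohol dehydrogenase, and the eosinophil chemokine Ccl11 (0.667). Wnt4 was nearest to Fam110a (0.704), the homeobox gene Hoxb7 (0.701) and the adhesion receptor Adgrg1 (0.693). Wnt5a was nearest to Zdhhc3 (0.761), a protein palmitoyltransferase, Ctps2 (0.732), a CTP synthase, and Fuca2 (0.731), a fucosidase. Among the 45 pairs of ligands, Wnt4 with Wnt10a (0.602) and Wnt4 with Wnt5a (0.52) were most alike, and Wnt1 with Wnt10a least (-0.413).

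Wnt16, a ligand known from bone, was lower with ASCs at 90 days. The lowest, median and highest arrays were then -5.82, -5.02 and -1.84 with BAM only, 3 of them well above background, and -6.64, -6.21 and -5.48 with ASCs, none well above background. Wnt16 with ASCs thus had only an upper bound, and the measured difference was -1.74 ± 0.50 (SE, limma adjusted p = 0.00694). Setting the mean of all 8 arrays of BAM only against the detection limit of the arrays with ASCs gave 2.92-fold. As 5 of these 8 arrays were not well above background either, this fold is not a lower bound. It was 2.27 without replicate 8 of BAM only (measured difference -1.37). The local background was 345 ± 14.2 intensity units with BAM only and 108 ± 7.03 with ASCs. Wnt3, not well above background on any array of these groups, had means of -4.95 and -6.04 there. The part of the background in the Wnt16 difference was not tested. The call was lost without any 1 of 8 arrays, namely replicates 1, 2, 6, 7 and 8 of BAM seeded with ASCs and 1, 6 and 8 of BAM only, with adjusted p from 0.0104 to 0.0358. Under normexp background correction the difference was -0.61 (adjusted p = 0.157), under quantile normalization -1.41 (adjusted p = 0.0287), and with only the groups compared its adjusted p was 0.0185. Within BAM seeded with ASCs Wnt16 fell from 30 to 90 days, from -4.63, -3.42 and -2.46 (lowest, median and highest) to the values above. All 8 arrays lay below (measured difference -2.66 ± 0.50, limma adjusted p = 1.65e-05), a call kept without any single array. The mean at 30 days lay 5.54-fold above the detection limit at 90 days. This fold is not a strict lower bound, since Wnt6 at -3.67 was not well above background on replicate 5 at 90 days. The step crosses the scan day, and the local background was 50.4 intensity units at 30 days and 108 at 90 days. The part of background and scan day in this fall was not tested. The change of the graft difference from 30 to 90 days, -2.36, did not pass (adjusted p = 0.0119), and passed without any 1 of 5 arrays (replicates 3 and 7 of BAM seeded with ASCs at 30 days, and 2, 5 and 7 of BAM only at 90 days, adjusted p from 0.007 to 0.00984). The change from 90 to 180 days, 2.19, had an adjusted p of 0.0219, and passed without replicate 6 of BAM only at 180 days (2.52, adjusted p = 0.00629).

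Wnt2b, Wnt4 and Wnt5a were measured on nearly every array, and none passed in a graft comparison. Wnt4, needed for kidney and female tract development, was 0.69 higher with ASCs at 30 days (95% interval 0.17 to 1.21, adjusted p = 0.0849) and 0.78 at 90 days (0.26 to 1.30, adjusted p = 0.0181). At 90 days its arrays were -2.86, -0.34 and 0.47 with BAM only (lowest, median and highest), and -0.14, 0.26 and 0.48 with ASCs. One array of BAM only, replicate 5, was far below the rest, and the difference was 0.45 without it. It passed without replicate 3 of BAM only (0.93, adjusted p = 0.00608). Wnt5a, the best known ligand that acts without β-catenin, was 0.69 higher with ASCs at 30 days (0.25 to 1.14, adjusted p = 0.0396), where the arrays were -3.60, -2.84 and -2.58 with BAM only and -2.86, -2.48 and -1.62 with ASCs. At 90 and 180 days its differences were 0.49 (0.05 to 0.93) and -0.43 (-0.87 to 0.01). Wnt2b was 0.75 higher with ASCs at 7 days (0.15 to 1.34, adjusted p = 0.0710), where the arrays were -4.90, -2.70 and -1.12 with BAM only and -3.15, -1.98 and -1.77 with ASCs. BAM only spread far wider here, with an SD of 1.08 against 0.44, and the difference passed without its replicate 2 (0.99, adjusted p = 0.00879).

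The remaining ligands passed in no graft comparison. Wnt5b, the close relative of Wnt5a, had differences of 0.51, 0.53, 0.48 and 0.06 at 7, 30, 90 and 180 days, and the 95% intervals reached 1.00, 1.03, 0.97 and 0.56. At 90 days 1 of the 8 BAM only arrays had Wnt5b signal well above background, and all 8 with ASCs did. The local background on that day was 345 ± 14.2 intensity units with BAM only and 108 ± 7.03 with ASCs. For Wnt6 these array counts were 2 and 6, although its group mean was -3.9 in both. The part of the background in these counts was not tested. The group means of Wnt5b lay between -3.71 and -2.89, and no step between days passed in either graft. Wnt6, also a ligand of epithelia, had group means between -4.40 and -3.68, and its graft differences were at most 0.39, with intervals reaching 0.94. Wnt11, a ligand of the ureteric bud and of muscle, had differences of -0.60, -0.17, -0.63 and 0.07. Its intervals were wide, since 1 or 2 arrays of each group at 90 and 180 days were far above the rest, such as 0.62 with BAM only at 90 days against a group median of -3.20. One value of Wnt11 in BAM seeded with ASCs at 30 days was missing, which left 7 arrays there. Wnt3 was clear of background on very few arrays, 1 of 8 of BAM only at 7 days and 3 of 8 of BAM seeded with ASCs at 30 days. At 30 days those 3 were among values from -7.67 to -1.06, and the measured difference of 1.65 did not pass (limma adjusted p = 0.0860). The mean of all 8 arrays with ASCs lay 2.32-fold above the detection limit of BAM only, where Wnt3 was not well above background. This fold is not a lower bound, as only those 3 arrays were measured. Without replicate 1 of BAM seeded with ASCs it was 1.47, and the measured difference was 0.99. Without the 4 arrays that stood apart or differed from their groups the difference was 0.46 (limma adjusted p = 0.459). The highest values in both groups came from the arrays that stood apart, replicate 7 of BAM only at 7 days (-1.78) and replicate 1 of BAM seeded with ASCs at 30 days (-1.06).

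Expression over time was compared within each graft. From 7 to 180 days Wnt2b and Wnt10a rose 2.53-fold and 3.53-fold with BAM only, and Wnt1 and Wnt4 rose 3.40-fold and 1.74-fold with ASCs. These counts stand beside very large changes over the whole array. With BAM only 2 of 10 ligands passed from 7 to 180 days, both higher, against 49.9% of all probes in either direction and 34.3% higher, and with ASCs 3 of 10, all higher, against 52.9% and 42%. The third with ASCs was Wnt3, which was not well above background in either group and for which no fold is given. The medians of the 10 ligands were 0.41 and 0.70, beside medians of all probes of 0.26 and 0.48. Under normexp 20.9% and 31.8% of all probes passed from 7 to 180 days. Of the probes that passed, 68.8% and 79.3% were higher, against 52.9% and 56% under quantile normalization. From 7 to 30 days 1 of 10 ligands passed with BAM only, against 8.65% of all probes (4.21% lower), and 0 of 10 with ASCs, against 8.06%, with 2 at an unadjusted limma p under 0.05. From 30 to 90 days 3 of 10 were higher with BAM only, against 44.7% (35.2% higher), one of them Wnt3, again not well above background in either group. With ASCs 2 of 10 passed, 1 higher and 1 lower, against 28.1%. From 90 to 180 days 1 of 10 was lower with BAM only, against 9.39% (4.17% lower), and 2 of 10 passed with ASCs, 1 higher and 1 lower, against 4.14%. The change of the graft difference passed for 0 of 10 ligands from 7 to 30 days (0.985% of all probes, 4 ligands at an unadjusted limma p under 0.05) and for Wnt1 alone in the others. There the shares of all probes were 9.99% from 30 to 90 days (6.67% lower), 9.79% from 90 to 180 days (5.95% higher) and 8.48% from 7 to 180 days (6.85% higher).

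**Figure D4:**
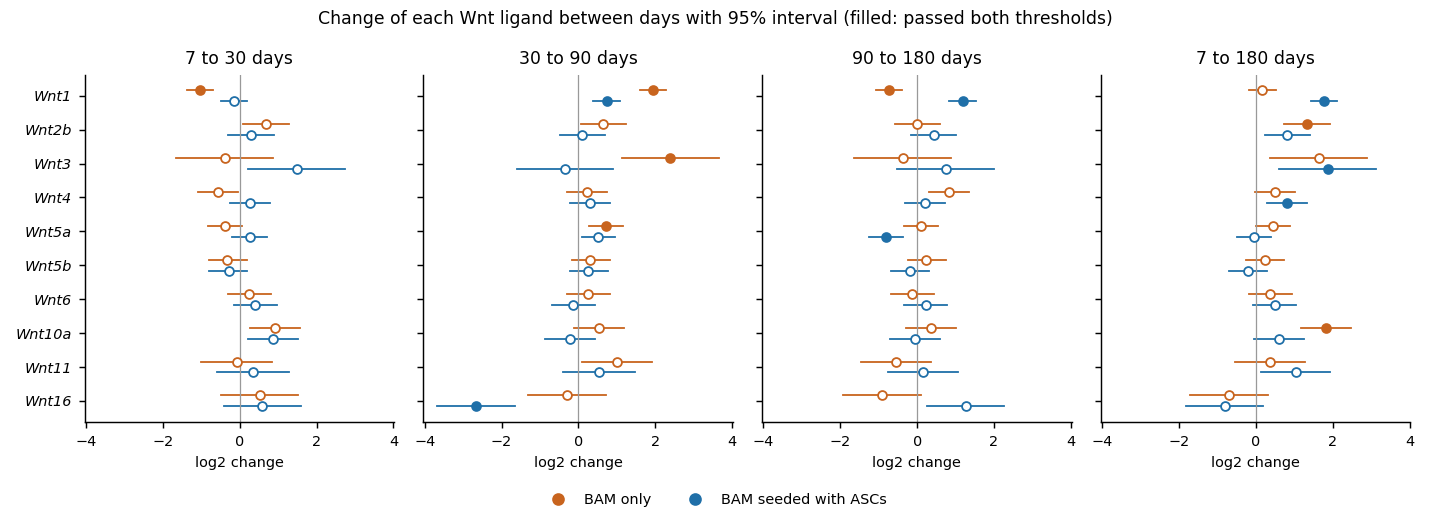
Change of each ligand between days (log2, x axis) with BAM only (orange) and BAM seeded with ASCs (blue), with the 95% interval of the fit; filled points passed both thresholds. Wnt1 moved in opposite directions in the grafts from 90 to 180 days (-0.73 and 1.18), and the filled points of Wnt3 belong to groups in which it was not well above background.

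Wnt2b rose with BAM only from group means of -2.84 ± 1.08 at 7 days to -1.51 ± 0.40 at 180 days (SD, n = 8), a change of 1.34 ± 0.30 (SE, adjusted p = 8.07e-05), with overlap between arrays. With ASCs it went from -2.10 ± 0.44 to -1.27 ± 0.60, a change of 0.82 that did not pass (adjusted p = 0.0116) and passed without replicate 2, 5, 6 or 7 at 180 days (adjusted p from 0.00599 to 0.00975). Wnt4 rose with ASCs by 0.80 ± 0.26 from -0.38 ± 0.23 to 0.42 ± 0.48 (adjusted p = 0.00554), a call lost without any 1 of 6 arrays (replicates 1, 5 and 7 at 7 days and 1, 5 and 6 at 180 days, adjusted p from 0.0104 to 0.0165) and with the percentile over detected probes (0.62, adjusted p = 0.0347). With BAM only its step from 90 to 180 days was 0.84 (adjusted p = 0.0127), and it passed without any 1 of 5 arrays (replicates 3, 4 and 7 at 90 days and 1 and 2 at 180 days, adjusted p from 0.0032 to 0.00957). Wnt5a with BAM only rose by 0.72 ± 0.22 from 30 to 90 days (adjusted p = 0.00386), a call lost without replicate 1, 2 or 4 at 30 days or 4 or 7 at 90 days (adjusted p from 0.0106 to 0.0133) and with only the groups compared (adjusted p = 0.0262). With ASCs Wnt5a fell by 0.82 ± 0.22 from 90 to 180 days (adjusted p = 0.00762), from arrays of -2.14, -1.92 and -0.74 to -3.68, -2.52 and -1.91. That call was lost without any 1 of 9 arrays (replicates 2, 3, 4, 6 and 8 at 90 days and 2, 4, 7 and 8 at 180 days), with adjusted p from 0.0102 to 0.0359, under normexp (-0.53, adjusted p = 0.0377) and with only the groups compared (adjusted p = 0.0216). The difference between the grafts in the step from 90 to 180 days, -0.92, did not pass (adjusted p = 0.0278). The 2 probes of Wnt11 disagreed. The brighter probe passed in no step. The other, well above background on 49 arrays, rose by 0.86 from 7 to 30 days with BAM only, and by 1.29 and 1.59 from 7 to 180 days with BAM only and with ASCs (adjusted p = 0.00461, 2.67e-06 and 2.72e-08), with no overlap of arrays in the latter 2. At 7 days this probe was well above background on 8 of 8 arrays in both grafts. At 180 days it was so on 5 of 8 with BAM only and 4 of 8 with ASCs. The local background was 46.6 and 43.4 intensity units at 7 days and 156 and 136 at 180 days (BAM only and with ASCs). The part of background and scan day in the rises to 180 days was not tested.

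Other genes of the pathway were taken from 7 lists. Of their 56 genes on the array, 3 differed between the grafts at 7 days (5.36%, against 7.73% of all probes), 2 at 30 days (3.57%, against 1.67%) and 5 at 90 days (8.93%, against 12.5%). At the last day 0 passed by limma, against 2.44%, where 9 had an unadjusted p under 0.05. At 7, 90 and 180 days these shares were below those of all probes, and at 30 days above with 2 genes. The genes are named as a description. At 7 days the co-receptor Lrp6 (-0.64) and the ligand Wnt9b (-1.65, well above background on 26 arrays) were lower with ASCs, and the secreted antagonist Dkk2 was higher (1.35), with adjusted p of 0.00624, 0.00236 and 3.92e-04. At 30 days the R-spondin receptor Lgr4 (0.95) and the acyltransferase Porcn (1.11), which every Wnt ligand needs for its lipid, were higher with ASCs (adjusted p = 5.02e-05 and 0.00584). Porcn was measured on all 64 arrays. At 90 days Fzd10 (-0.90), a Frizzled receptor, Lgr5 (-0.94), an R-spondin receptor, Dvl3 (-1.14), which passes the signal on from Frizzled, and the ligand Wnt7a (-0.76) were lower with ASCs, and the receptor Ror1 was higher (0.61). Of these, Lgr5 and Dvl3 were well above background on 26 and 27 arrays. Among 9 β-catenin target genes on the array 0 passed at any of the 4 days by limma, with 2, 2, 1 and 0 at an unadjusted p under 0.05 and medians of 0.24, 0.25, -0.16 and 0.03. Over time 27 of the 56 pathway genes passed from 7 to 180 days with BAM only and 28 with ASCs (48.2% and 50%), near the shares of all probes given above (49.9% and 52.9%). In that span 5 targets rose and 1 fell with BAM only, and 6 rose and 1 fell with ASCs, both with a median of 1.48. Of 11 secreted antagonists 7 rose and 1 fell with BAM only, and 6 rose with ASCs. Of 14 Frizzled receptors and co-receptors 4 rose and 2 fell with BAM only, and 5 rose and 1 fell with ASCs. These 3 lists stand beside the medians of all probes of 0.26 and 0.48 given above.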

How the data were processed

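Total RNA of 64 reconstructed bladder walls was labeled with Cy3 and hybridized to one-color Agilent rat arrays. For every array the authors deposited what Agilent Feature Extraction 12.0.1.1 wrote. Its processed signal is a linear intensity from which the background of the same array has been taken, and its flags (other values, deposited as 0 or 1) say whether a spot is well above background. The deposited series matrix also holds intensities, and 60 of its 64 columns equal the scanner values to within 0.01 (log2).

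Log2 of the processed signal minus the array's 75th percentile of gene spots was computed, leaving out control and outlier spots and averaging replicate spots of a probe (62976 spots, 58717 gene spots, 30367 gene probes). A probe was well above background where at least 0.5 of its spots were. A gene with several probes was represented by the probe with the highest mean. Of 22372 probes with a RefSeq transcript, 18758 were named through a RefSeq gene table (assembly GRCr8), which was not used for coordinates of probes. The fit of 8 group means was made in limma 3.58.1 (R 4.3.3), and the thresholds were those of the study's methods, applied to adjusted p. Permutations, promoter searches and plots used Python 3.11.15. For a probe that no array of a group measured well above background, the fold is set against the detection limit. This limit is the lowest signal of any probe well above background on the array. Other probes can be brighter and still not be well above background, so the fold is not a strict lower bound. Arrays of the other group that were not well above background weaken it further. The fit was tested on simulated data. Arrays were grouped by graft, day and replicate number of the labels, and no 2 arrays held identical values. Precision is limited by the 8 arrays per group.

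The ligands, the 11 marker lists and the 7 pathway lists were chosen with earlier results of these data known. Beyond the ligands, the genes named are pathway genes that passed in a graft comparison, at most 3 per list and day, the 3 genes most alike each ligand well above background on at least 56 arrays, and markers. The markers named passed in a graft comparison or are given beside Wnt1 or Wnt10a, and were named after their values were seen. The alternatives tried were normexp (offset 50), quantile normalization, the series matrix values, the percentile over detected probes, outlier spots kept, dim probes left out, the mean over a gene's probes, only the groups compared, a 2-fold threshold, an unadjusted p under 0.01, plain t-tests from the same fit, the replicate number as a block and each array left out. Leaving out 2 or 4 arrays that stood apart was chosen after seeing the data. Real-time PCR and histology were not analysed here.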

Additional observations from a re-analysis of the deposited data

Results flagged for a closer look

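In 17 of 80 groups of 8 arrays (7 for Wnt11 in BAM seeded with ASCs at 30 days, where 1 value is missing) the highest or lowest array stood farther from the others than Dixon's 95% critical value allows. Chance gives this in about 1 in 20 groups. Replicate 5 of BAM only at 90 days was the lowest array for Wnt4 (-2.86), Wnt5a (-3.61) and Wnt10a (-3.18, not well above background), all log2 normalized signal. The other low arrays were Wnt2b in BAM seeded with ASCs at 7 days (replicate 3, -3.15) and in BAM only at 30 days (replicate 5, -2.91), Wnt4 in BAM only at 7 days (replicate 2, -1.08), Wnt10a in BAM only at 180 days (replicate 2, -1.23) and Wnt16 in BAM only at 7 days (replicate 2, -8.80, not well above background). High arrays were Wnt3 in BAM only at 7 days (replicate 7, -1.78) and at 90 days (replicate 8, -2.39) and in BAM seeded with ASCs at 180 days (replicate 6, -4.61), the latter 2 not well above background. Wnt4 in BAM only at 180 days (replicate 5, 1.77) and Wnt5a in BAM seeded with ASCs at 90 days (replicate 3, -0.74) were high as well. So was Wnt11 in BAM seeded with ASCs at 30 days (replicate 1, -2.26), 90 days (replicate 1, 0.25) and 180 days (replicate 3, -0.91) and in BAM only at 180 days (replicate 4, -0.80). Whether these arrays differ by tissue or by technique was not tested.

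The graft difference of Wnt1 was not the same at all days. The graft difference changed by -1.20 from 30 to 90 days, by 1.91 from 90 to 180 days and by 1.60 from 7 to 180 days, each past the thresholds in limma's test of the change itself. The 90 and 180 day arrays were scanned on the same day, and the 7 day arrays on another.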

How the results depend on the processing

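No ligand difference that passed, here or under an alternative, turned its direction. Of 160 ligand differences 35 turned their sign under an alternative and 24 without an array, all of them differences that did not pass. Counts of ligands that passed stayed within 1.5 times under plain t-tests, outlier spots kept and the mean over a gene's probes. Under normexp background correction 1 ligand passed at 90 days, 0 at 180 days, 0 from 90 to 180 days with BAM only and 1 from 90 to 180 days with ASCs. Under quantile normalization 1 passed at 90 days. With the percentile over detected probes 0 passed at 180 days and 1 from 7 to 180 days with ASCs. With the series matrix values 0 passed at 180 days and 2 from 90 to 180 days with BAM only. At a 2-fold threshold 1 passed at 7 days, 0 at 180 days, 0 from 90 to 180 days with BAM only, and with ASCs 1 from 30 to 90 and 1 from 90 to 180 days. With an unadjusted p 2 passed at 30 days, 2 from 7 to 30 and 2 from 90 to 180 days with BAM only, and 1 from 7 to 30 days with ASCs, and the graft difference changed for 1, 3 and 3 ligands in the 3 steps. With dim probes left out 1 passed at 90 days and 2 from 90 to 180 days with BAM only. With only the groups compared 1 passed at 90 days, 0 from 90 to 180 days with BAM only, 5 from 7 to 180 days with ASCs and 2 in the change from 30 to 90 days. Without the 2 arrays that stood apart 1 passed at 7 days and 2 in the change from 30 to 90 days. Without these and 2 more (replicate 8 of BAM only at 90 days and 2 of BAM seeded with ASCs at 30 days) 1 passed at 7 days and 1 at 90 days, where Wnt16 was lost. Apart from the causes set by the thresholds and samples themselves, the cause was not tested.

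With each array left out in turn, 1 to 3 ligands passed at 7 days, 0 to 1 at 30 days, 1 to 3 at 90 days and 0 to 1 at 180 days. With BAM only the ranges were 1 to 2 from 7 to 30 days, 2 to 3 from 30 to 90 days, 0 to 2 from 90 to 180 days and 2 to 3 from 7 to 180 days. With ASCs they were 0 to 0, 2 to 2, 1 to 2 and 1 to 4. For the change of the graft difference they were 0 to 0 from 7 to 30, 1 to 2 from 30 to 90, 1 to 2 from 90 to 180 and 1 to 1 from 7 to 180 days. Wnt3 from 7 to 180 days with ASCs lost its call without any 1 of 10 arrays and under 4 settings of scaling or background. The replicate number as a block changed no call, so 2, 0, 2 and 1 ligands passed at the 4 days. The numbers do not pair the rats: correlations of same-numbered arrays ran from -0.312 to 0.617, and at most 4 of 16 arrays of a comparison were closest to their own number. The median of all probes depended on the scaling, for example from 0.30 to 0.03 under quantile normalization for BAM only from 30 to 90 days, and it turned from -0.27 to 0.08 under normexp for the grafts at 90 days and from -0.16 to 0.03 with the series matrix values at 7 days. Under normexp 15.1% and 13% of all probes passed from 30 to 90 days with BAM only and with ASCs. Wnt3, Wnt16, Wnt6 and Wnt11 were limited by signal over background.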

Other observations

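Other ligands were related to other marker lists from rat to rat. Of 120 relations between ligands and marker lists or the all-probe median, taken within groups over 64 arrays, 17 had an adjusted permutation p of r under 0.05. Wnt4, which resembled Wnt10a, ran against the Schwann cell markers (r = -0.534, rho = -0.405, adjusted p = 0.0165 and 0.0282, and -0.327 without the 2 arrays farthest from the median of the markers). Its relation to the smooth muscle markers was also negative (r = -0.375, rho = -0.317, adjusted permutation p = 0.0374 and 0.108, -0.333 without 2 arrays). That to the neutrophil markers was positive (r = 0.373, rho = 0.323, adjusted permutation p = 0.0449 and 0.108, 0.373 without 2 arrays). Wnt2b had an r of 0.437 with the smooth muscle markers that did not pass (rho = 0.362, adjusted permutation p = 0.0565 and 0.0883). This r was 0.192 without 2 arrays. Wnt3 followed the all-probe median of its array (r = 0.746, rho = 0.339, adjusted permutation p = 0.0024 and 0.127, 0.476 without 2 arrays), and it was well above background on 4 arrays only. Wnt5b and Wnt6 were related to the skeletal muscle markers (r = 0.510 and 0.371, rho = 0.295 and 0.348, adjusted permutation p of r 0.026 and 0.0316, of rho 0.153 and 0.0794, and r of 0.283 and 0.296 without 2 arrays). Wnt6 also varied with the all-probe median of its array (r = 0.322, rho = 0.288, adjusted permutation p = 0.0374 and 0.112, 0.207 without 2 arrays) and with the Schwann cell markers (r = 0.321, rho = 0.265, adjusted permutation p = 0.0488 and 0.156, 0.31 without 2 arrays). Wnt10a ran against the Schwann cell markers (r = -0.448, rho = -0.302, adjusted permutation p = 0.0325 and 0.125, -0.231 without 2 arrays).

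Of 69 genes in the 11 marker lists 9, 1, 7 and 0 passed between the grafts at 7, 30, 90 and 180 days (13%, 1.45%, 10.1% and 0%, against 7.73%, 1.67%, 12.5% and 2.44% of all probes). Of 7 endothelial markers 2 were lower with ASCs at 7 days (Kdr and Vwf) and 1 at 90 days (Cdh5). Of 8 fibroblast markers 1 was lower at 7 days (Pdgfrb) and 3 were higher at 90 days (Col1a1, Col1a2 and Dcn), and of 8 smooth muscle markers 3 were higher at 90 days (Myh11, Actg2 and Tagln). At 7 days 1 of 6 neutrophil markers was lower (Csf3r) and 1 of 5 adipocyte markers higher (Pparg). No lymphocyte, macrophage, Schwann cell or skeletal muscle marker passed at any day. These genes were named after their values were seen.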
